A study of Homo sapiens with 12 samples.

Results

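The 33 genes described here build and police the attachment of chromosomes to the mitotic spindle: proteins of the centromere and the kinetochore, the spindle checkpoint and the chromosomal passenger complex. They were taken by symbol, using each probe set whose annotation names a single gene and that gene is one of the 33, which gave 63 of the 41091 single-gene probe sets and 33 of 19775 genes. One further probe set, which names CENPA together with SLC35F6, was left out. A gene with several probe sets (14 of the 33, up to 5 each) was represented by their mean.

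The centromere is marked by nucleosomes holding the histone H3 variant CENP-A. On them sits the constitutive inner kinetochore, and on that the outer kinetochore, whose NDC80 complex grips microtubules. Unattached kinetochores recruit the checkpoint kinases and MAD2, which hold back the anaphase-promoting complex, while the passenger complex with Aurora B releases faulty attachments. Most of these genes are transcribed late in the cell cycle.

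The study transfected 3 established human cancer lines, labelled as prostate (PC-3), breast (HBC4) and gastric (MKN74). There were 4 treatments of each line: Lipofectamine RNAiMAX, the transfection reagent, without oligonucleotide (reagent alone), the RNA (uuaccc)4, the RNA (uuaggg)4, and the DNA aptamer AS1411. The last 2 are guanine-rich sequences known to fold into G-quadruplexes (G4), structures of stacked guanines. The dose was about 100 pmol an oligonucleotide for 300000 cells, which all grew without attachment on a low-adhesion surface in 3D culture and were harvested at 72 h. RNA was read on 12 Affymetrix arrays, 1 for each line and treatment, so a treatment had n = 3 arrays of 3 lines and a line had 4 arrays of 4 treatments. The labels name no separate cultures within a line, and no 2 arrays share both line and treatment. The p-values therefore measure only the spread between these arrays that the terms of a fit leave over. Part of it may be technical, and it is not the spread of repeated cultures. Of 4 prostate markers measured, HOXB13 (line means of 4.61, -0.06 and -0.30 in PC-3, HBC4 and MKN74) and TMPRSS2 (0.62, -0.01 and -0.61) were highest in PC-3, while KLK2 (-0.02, 0.12 and -0.02) and KLK3 (-0.12, 0.09 and -0.01) were highest in HBC4. Of 6 breast markers 5 were highest in HBC4, among them SCGB2A2 (1.08) and TRPS1 (1.41), and TFAP2B was not (0.02, 0.01 and 0.04). Of 7 gastric and intestinal markers 3 were highest in MKN74: CDX2 (0.83), VIL1 (0.16) and GKN1 (0.07). As many were highest in HBC4: LGALS4 (0.15), CDH17 (-0.07, 0.14 and 0.05 in PC-3, HBC4 and MKN74) and CDX1 (0.07). TFF1 was highest in PC-3 (8.15). The contrast of 3' and 5' control probe sets, a sign of RNA degradation, differed between G4 and control arrays by 0.01 for GAPDH and by -0.04 for ACTB (log2, mean of the lines). In the order reagent alone, (uuaccc)4, (uuaggg)4 and AS1411, the ACTB contrast was -0.24, -0.21, -0.27 and -0.06 in PC-3. It was -0.20, 0.19, -0.37 and -0.23 in HBC4 and 0.05, -0.02, 0.14 and 0.11 in MKN74. The mean for ACTB thus averages shifts of opposite direction, and their part in the values was not tested.

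Each value is the log2 value of an array relative to the median of the 12 arrays for the same probe set, since the deposited values were centred in that way. A value of 1 is therefore 2-fold above that median, and values of different genes cannot be set against each other as levels. With G4 oligonucleotides these genes were mostly higher than in controls. Of the 33, 10 rose past an adjusted p of 0.05 over all 19775 genes (limma) and 0 fell, where 0.961% of all genes rose and 1.65% fell. The difference was positive for 30 of the 33, with a median of 0.24 on the log2 scale, against 56.3% of all genes and a median of 0.02. The genes were chosen with earlier results of these data known, so the contrast with all genes is a description and no test. The risers were CENPA, CENPM and CENPW at the inner kinetochore, SPC25 in the NDC80 complex, the motor CENPE, the checkpoint components BUB1B, MAD2L1 and TTK, and CDCA8 and BIRC5 of the passenger complex. All 10 were positive in the 3 lines, by 1.29-fold to 1.43-fold on average. More dividing cells and more of these mRNAs per cell cannot be told apart in these bulk samples. This comparison sets the mean of (uuaggg)4 and AS1411 against the mean of reagent alone and (uuaccc)4.

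**Figure D1:**
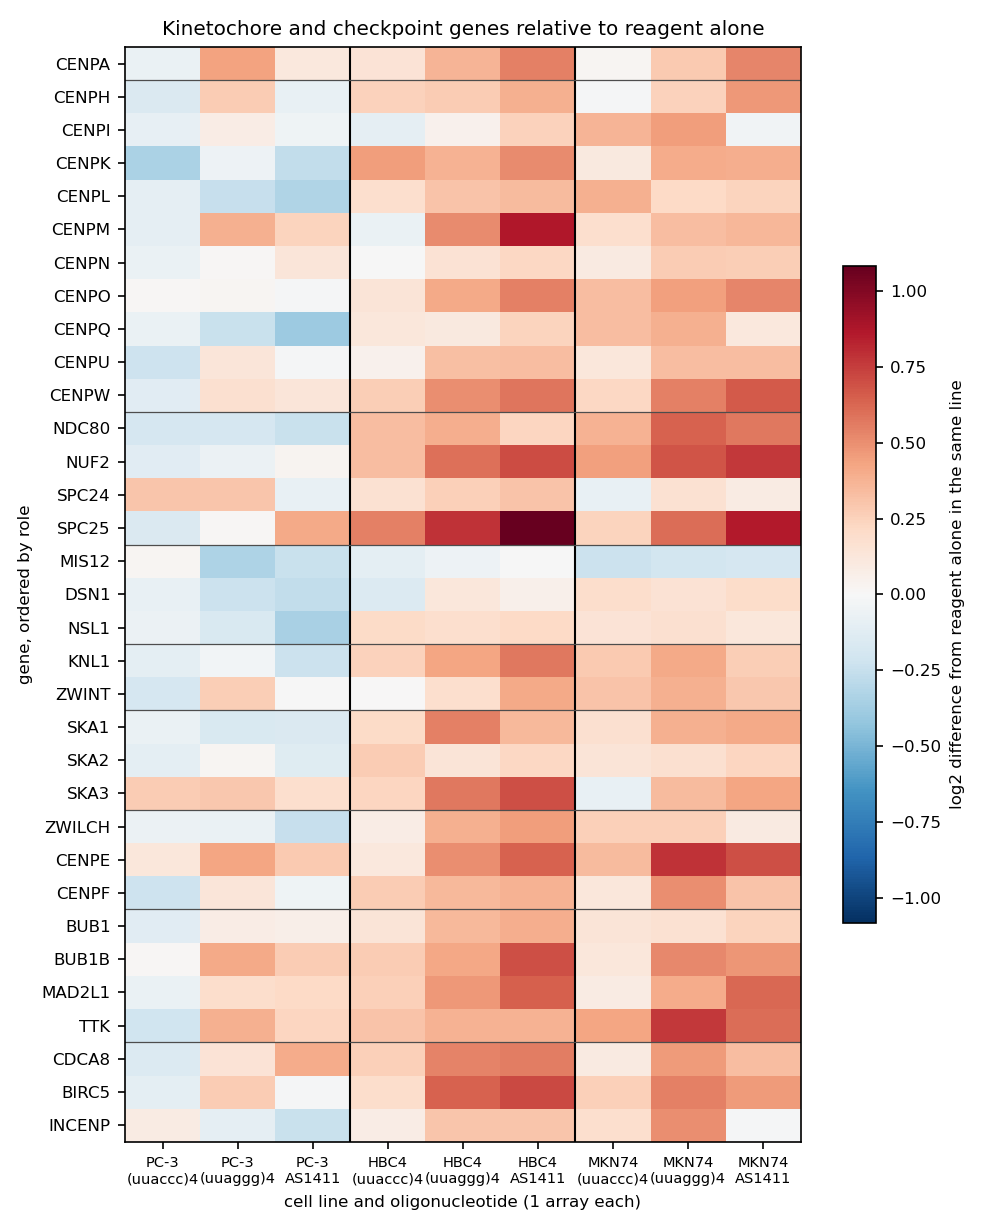
Each cell is the log2 value of 1 array minus that of the reagent-alone array of the same line, for the 33 genes (rows, lines separate the roles) and 3 oligonucleotides in 3 lines (columns). SPC25 with AS1411 in HBC4 is the highest cell at 1.08, and the PC-3 columns hold most of the negative cells.

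Among the checkpoint and corona genes, CENPE led. It encodes the kinesin that carries chromosomes toward the plate and feeds checkpoint signalling. Its log2 values, in the order reagent alone, (uuaccc)4, (uuaggg)4 and AS1411, were -1.35, -1.23, -0.93 and -1.07 in PC-3, -0.27, -0.16, 0.24 and 0.37 in HBC4 and 0.16, 0.50, 0.94 and 0.86 in MKN74. In each line both G4 arrays lay above both control arrays. The difference was 0.46 ± 0.15 (SD, n = 3 lines), or 1.38-fold (adjusted p = 0.00691). BUB1B, the BUBR1 kinase-like subunit of the mitotic checkpoint complex, had in the same order -1.06, -1.04, -0.65 and -0.78 in PC-3, -0.35, -0.07, 0.07 and 0.35 in HBC4 and 0.09, 0.22, 0.61 and 0.57 in MKN74. Its G4 and control arrays separated in each line too, and the 3 line differences of 0.34, 0.42 and 0.44 were close to each other (0.40 ± 0.05, adjusted p = 0.0109). MAD2L1, whose product MAD2 sequesters the activator CDC20, had -1.84, -1.90, -1.64 and -1.62 in PC-3, -0.27, -0.01, 0.19 and 0.38 in HBC4 and 0.01, 0.10, 0.41 and 0.63 in MKN74. The G4 arrays were again the higher ones in the 3 lines, by 0.38 ± 0.12 (adjusted p = 0.0122), and its 3 probe sets gave 0.34 to 0.43. TTK, the kinase MPS1 that starts checkpoint signalling, had -1.88, -2.10, -1.49 and -1.65 in PC-3, -0.34, -0.03, 0.03 and 0.03 in HBC4 and 0.82, 1.25, 1.59 and 1.43 in MKN74. G4 and control arrays did not overlap within a line, but in HBC4 the gap to (uuaccc)4 was small, and the mean difference was 0.37 ± 0.13 (adjusted p = 0.0453). BUB1, the kinase that docks BUBR1 on the kinetochore, had 0.19 ± 0.10 without passing (adjusted p = 0.109), with 5 probe sets from -0.02 to 0.41. The coiled-coil corona protein CENPF had 0.24 ± 0.10 (adjusted p = 0.0988), and ZWILCH, of the RZZ complex that recruits dynein, had 0.10 ± 0.26 (adjusted p = 0.581).

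In the outer kinetochore SPC25 had the largest difference of the 33. SPC25 pairs with SPC24 to anchor the NDC80 complex. It stood at -2.22, -2.38, -2.21 and -1.81 in PC-3, -0.67, -0.12, 0.12 and 0.42 in HBC4 and 0.58, 0.83, 1.19 and 1.45 in MKN74. Within HBC4 and MKN74 the 4 treatments kept the order reagent alone, (uuaccc)4, (uuaggg)4, AS1411, and in PC-3 the (uuaggg)4 array was only just above reagent alone. The difference was 0.52 ± 0.20, or 1.43-fold (adjusted p = 0.017). Its partners did not pass: NUF2 had 0.35 ± 0.26 (adjusted p = 0.0851), NDC80 0.15 ± 0.27 (adjusted p = 0.448) and SPC24 0.11 ± 0.13 (adjusted p = 0.469). NUF2, which forms the microtubule-binding head with NDC80, had -1.63, -1.75, -1.69 and -1.59 in PC-3, -0.31, 0.03, 0.29 and 0.40 in HBC4 and -0.03, 0.41, 0.66 and 0.74 in MKN74. It was separated in HBC4 and MKN74 and flat in PC-3. The MIS12 complex, which links inner and outer kinetochore, had no member past the threshold: MIS12 -0.12 ± 0.16 (adjusted p = 0.358), NSL1 -0.02 ± 0.18 (adjusted p = 0.917) and DSN1 0.01 ± 0.19 (adjusted p = 0.958). These had the differences nearest to or below 0 together with CENPQ (-0.03 ± 0.22, adjusted p = 0.902) and CENPL (0.01 ± 0.24, adjusted p = 0.961). The scaffold KNL1 had 0.17 ± 0.23 (adjusted p = 0.339) and its partner ZWINT 0.24 ± 0.06 (adjusted p = 0.135). In the SKA complex, which follows shortening microtubules, SKA3 came closest to passing (0.35 ± 0.22, adjusted p = 0.0515), and SKA1 (0.18) and SKA2 (0.06) had adjusted p of 0.295 and 0.645.

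At the inner kinetochore CENPA, the histone variant itself, had -1.15, -1.22, -0.72 and -1.03 in PC-3, -0.09, 0.06, 0.28 and 0.46 in HBC4 and -0.01, 0.01, 0.27 and 0.52 in MKN74. G4 arrays were above controls in each line, and the 3 line differences ran from 0.31 to 0.39 (0.36 ± 0.04, adjusted p = 0.0306). CENPM, a pseudo-GTPase of the CENP-H, -I, -K, -M group, had -1.44, -1.54, -1.06 and -1.20 in PC-3, 0.08, 0.00, 0.59 and 0.95 in HBC4 and -0.18, -0.00, 0.15 and 0.18 in MKN74. The AS1411 array of HBC4 was the highest of them, and the difference in HBC4 (0.73) was above those in PC-3 (0.36) and MKN74 (0.26), with a mean of 0.45 ± 0.25 (adjusted p = 0.0324). CENPW, which with CENP-T forms a histone-fold pair, had -1.28, -1.40, -1.10 and -1.15 in PC-3, -0.32, -0.06, 0.18 and 0.25 in HBC4 and 0.06, 0.29, 0.60 and 0.72 in MKN74. Its groups did not overlap within a line (0.37 ± 0.14, adjusted p = 0.0215). Of the other 8 inner kinetochore genes none passed. CENPU (0.25 ± 0.07, adjusted p = 0.0507) and CENPN (0.17 ± 0.06, adjusted p = 0.093), which reads the CENP-A nucleosome, were positive in 3 lines, as were CENPH (0.25), CENPK (0.19) and CENPI (0.09). CENPO had 0.24 with -0.01 in PC-3.

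In the passenger complex CDCA8, the borealin subunit, had -1.95, -2.10, -1.80 and -1.55 in PC-3, 0.03, 0.29, 0.56 and 0.58 in HBC4 and -0.12, -0.03, 0.34 and 0.21 in MKN74. No G4 array fell within the controls of its line, and the line differences of 0.35, 0.42 and 0.35 gave 0.37 ± 0.04 (adjusted p = 0.0183). BIRC5, the survivin subunit, had -0.35, -0.46, -0.07 and -0.36 in PC-3, 0.05, 0.24, 0.69 and 0.76 in HBC4 and -0.21, 0.05, 0.34 and 0.25 in MKN74. In PC-3 its AS1411 array was level with reagent alone. The mean was 0.38 ± 0.20 (adjusted p = 0.0369), from 0.24 to 0.55 over 4 probe sets. INCENP, the scaffold that activates Aurora B, had 0.07 ± 0.25 (adjusted p = 0.743), with -0.22 in PC-3 against 0.26 in HBC4.

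**Figure D2:**
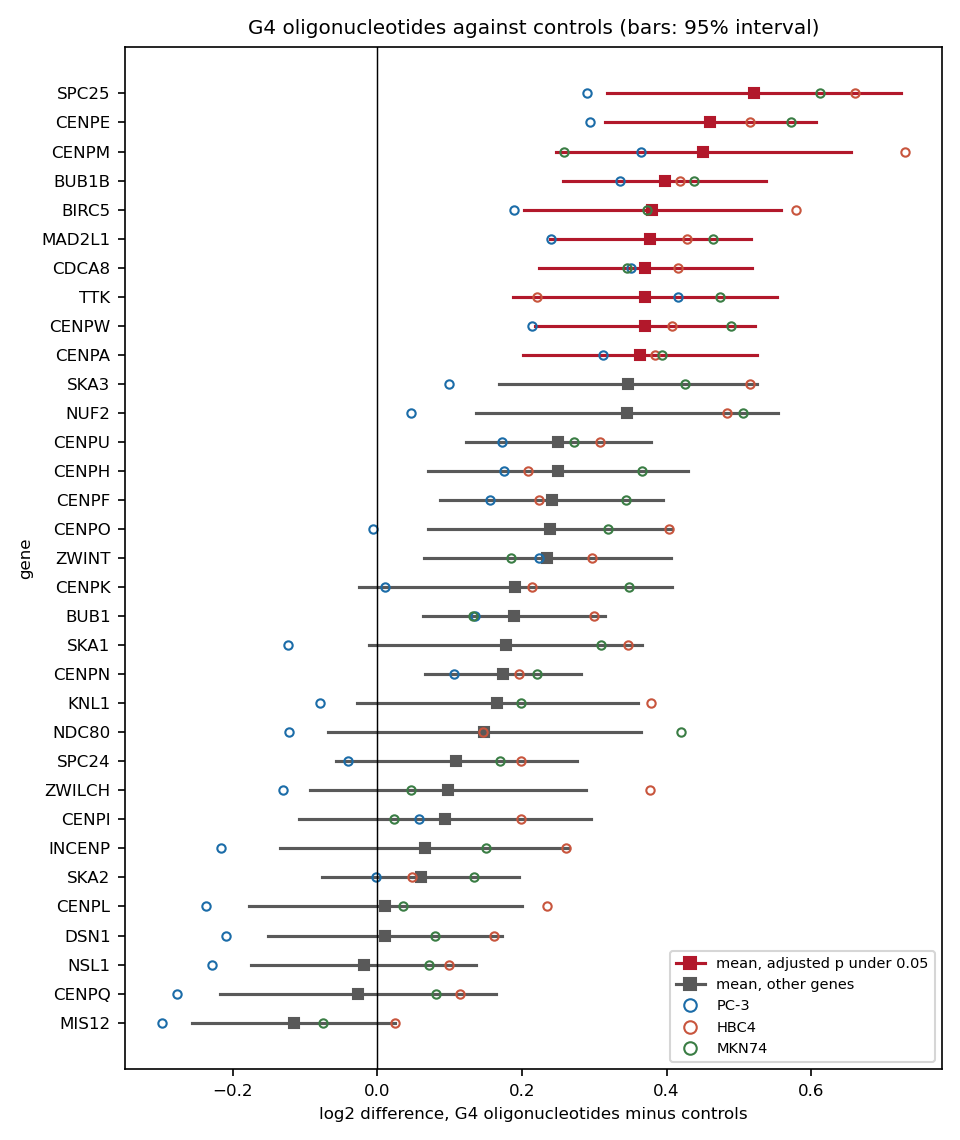
Squares are the mean log2 difference of G4 oligonucleotides minus controls for each of the 33 genes, bars its 95% interval from the fit, and open circles the difference in each line. The 10 red genes passed an adjusted p of 0.05, and the PC-3 circle is the lowest of the 3 for most genes.

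Since many of these genes moved together, their promoters were read from RefSeq (GRCh38.p14), in windows from 250 bases before to 50 after the start, for the 27 of 33 genes with an entry. Elements known from late cell-cycle promoters were searched on both strands: the CCAAT box bound by NF-Y, and the cell cycle homology region, written TTTGAA or TTTAAA, the latter reading the same on both strands. The CHR letters were in 15 of 27 promoters (55.6%), against 18.9% of the 15384 genes on the array with a promoter, and CCAAT in 17 of 27 (63%), against 36.1%. The CHR letters stood in 6 of the 7 promoters of genes past the threshold with G4 oligonucleotides and in 9 of the other 20, and CCAAT in 5 of the 7 and 12 of the other 20. Neither split was tested. In 1 case a CCAAT and a CHR match overlapped. A match is a run of letters and no proof of a working site. The promoters of the 4 genes with the smallest p, and of MIS12, which had the lowest difference, are printed 5′ to 3′ with both elements in capitals (ATTGG is CCAAT on the other strand); where a gene has several windows, the first listed was used.
CENPE promoter, chr4:103198294-103198593, minus strand: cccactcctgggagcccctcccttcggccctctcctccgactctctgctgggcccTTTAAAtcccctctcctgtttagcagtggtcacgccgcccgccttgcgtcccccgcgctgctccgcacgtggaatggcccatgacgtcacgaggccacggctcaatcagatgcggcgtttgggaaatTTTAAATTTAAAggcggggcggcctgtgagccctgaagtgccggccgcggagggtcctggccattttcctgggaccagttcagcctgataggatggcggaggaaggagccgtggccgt
BUB1B promoter, chr15:40160819-40161118, plus strand: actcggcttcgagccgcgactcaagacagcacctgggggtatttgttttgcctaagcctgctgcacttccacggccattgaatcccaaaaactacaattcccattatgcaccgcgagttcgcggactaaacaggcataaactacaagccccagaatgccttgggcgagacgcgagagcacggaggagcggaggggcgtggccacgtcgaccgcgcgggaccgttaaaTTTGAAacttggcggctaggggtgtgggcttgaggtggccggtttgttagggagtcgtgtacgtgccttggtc
MAD2L1 promoter, chr4:120066799-120067098, minus strand: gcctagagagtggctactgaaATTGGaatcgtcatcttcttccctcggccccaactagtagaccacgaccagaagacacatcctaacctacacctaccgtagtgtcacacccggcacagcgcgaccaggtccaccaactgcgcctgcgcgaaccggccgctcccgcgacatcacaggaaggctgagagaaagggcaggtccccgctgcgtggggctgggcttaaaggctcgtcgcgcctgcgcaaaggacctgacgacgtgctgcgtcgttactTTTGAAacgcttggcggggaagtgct
SPC25 promoter, chr2:168890381-168890680, minus strand: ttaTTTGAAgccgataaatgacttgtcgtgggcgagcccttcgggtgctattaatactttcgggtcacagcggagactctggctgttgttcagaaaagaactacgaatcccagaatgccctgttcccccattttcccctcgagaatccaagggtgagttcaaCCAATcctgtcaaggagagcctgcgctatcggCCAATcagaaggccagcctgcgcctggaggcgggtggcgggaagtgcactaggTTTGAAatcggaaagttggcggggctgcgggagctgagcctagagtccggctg
MIS12 promoter, chr17:5486124-5486423, plus strand: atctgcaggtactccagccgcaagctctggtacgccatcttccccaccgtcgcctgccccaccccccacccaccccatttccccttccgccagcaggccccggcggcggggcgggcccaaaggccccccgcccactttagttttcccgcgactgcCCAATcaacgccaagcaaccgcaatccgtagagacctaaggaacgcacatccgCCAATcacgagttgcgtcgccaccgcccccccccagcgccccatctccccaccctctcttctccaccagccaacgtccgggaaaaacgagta
CENPE holds TTTAAA 195, 68 and 62 bases before its start and no CCAAT. BUB1B holds TTTGAA 23 bases before the start. In MAD2L1 TTTGAA begins at base 25 after the start, and SPC25 has CCAAT at 88 and 56 and TTTGAA at 247 and 3 bases before it. MIS12, which did not rise, has CCAAT at 95 and 42 bases before the start and no CHR letters in this window.

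Both G4 arrays lay above both control arrays in all 3 lines for 11 of the 33 genes, against 3.51% of all genes, in 2 lines for 9 (14.8% of all genes) and in 1 line for 10 (36.3%). Both G4 arrays lay below both controls in 1 line for 9 genes (30.6% of all genes), in 2 lines for 0 (11.5%) and in 3 lines for 0 (3.52%). Probe sets mostly went the same way: of the 14 genes with several, 9 had every probe set positive, and CENPL, CENPN, NSL1, SKA2 and BUB1 had probe sets of both signs. Which genes passed depended on single arrays. When single arrays were left out in turn, CENPE, BUB1B and MAD2L1 passed in 12 of 12 fits, SPC25 and CDCA8 in 7, CENPM in 5, CENPA in 3, CENPW and BIRC5 in 2 and TTK in 1. The count of 10 became 13 without the PC-3 array of reagent alone (0.824% of all genes were then higher). Without the PC-3 array of AS1411 it was again 10 (0.819%), of which 9 were among the first 10, with SKA3 in place of TTK. Without any one of the other arrays it was 3 to 6 (0.319% to 0.582%). Without HBC4 the count was 0 (0.0202% of all genes) and without MKN74 0 (0.086%), and the differences of the 10 genes then lay between 0.28 and 0.45 and between 0.31 and 0.55. Without PC-3 it was 7 (0.207%). Against (uuaccc)4 as the only control it was 0 (0.131%) and against reagent alone 5 (0.263%), both added after the data were seen.

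**Figure D3:**
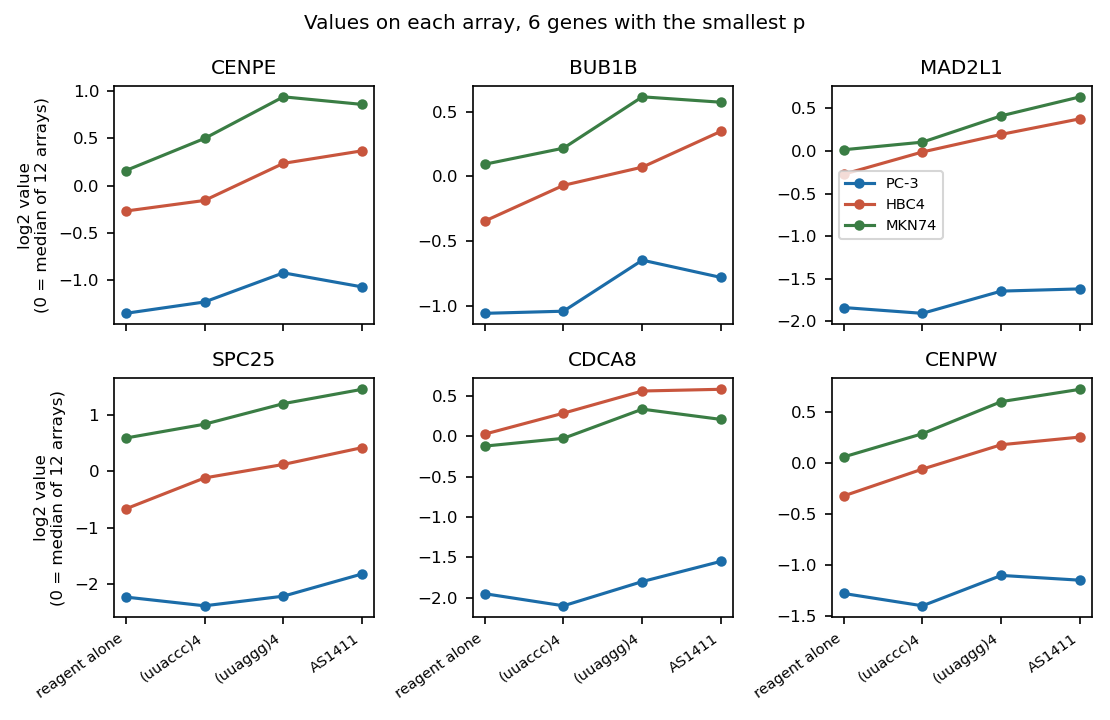
Log2 values relative to the median of the 12 arrays are shown for the 6 genes with the smallest p, by treatment (horizontal axis) and line (colour), 1 array a point. In each panel the 2 right-hand points of a line, the G4 oligonucleotides, lie above its 2 left-hand points. The genes were picked by their p in this same comparison, which favours such a separation.

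The pathway beyond the 33 genes was read from a list of 33 other kinetochore and checkpoint genes, of which 30 were measured. Of these 4 rose and 0 fell: CDC20, the activator that the checkpoint restrains (0.55 ± 0.25, adjusted p = 0.00603), OIP5, a CENP-A loading factor (0.41 ± 0.07, adjusted p = 0.0306), TRIP13, the ATPase that remodels MAD2 (0.39 ± 0.27, adjusted p = 0.0451), and SPAG5, or astrin (0.36 ± 0.15, adjusted p = 0.0251). The list's median was 0.18, with 24 of 30 positive. Of 18 S phase genes, which act before mitosis, 3 rose and 0 fell (RRM2, TYMS and PRIM1), the median was 0.23 and 18 were positive. Over all genes 0.961% rose, 1.65% fell and 56.3% were positive, with a median of 0.02. Both lists, too, were chosen with earlier results of these data known.

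The step from reagent alone to (uuaccc)4, the non-G4 RNA, had a smaller median difference. It sets 3 arrays against 3, where the G4 comparison sets 6 against 6, so its SE was larger (CENPA 0.10 against 0.07). Counts of calls in the 2 comparisons therefore differ in precision as well. limma called 0 of the 33 genes and 0% of all genes in either direction, 0 of the 33 had an unadjusted p under 0.05, and robust eBayes called 0 as well. The 3' to 5' contrast moved by 0.02 for GAPDH and 0.12 for ACTB in this step, as the mean of the lines. For ACTB it went from -0.20 to 0.19 in HBC4, from -0.24 to -0.21 in PC-3 and from 0.05 to -0.02 in MKN74. The part of this contrast in the values was not tested. The difference was nevertheless positive for 30 of 33, with a median of 0.10, where 47.1% of all genes were positive and their median was -0.01. The largest were NUF2 (0.22 ± 0.30), SPC25 (0.21 ± 0.35) and CENPE (0.19 ± 0.13, the smallest p at 0.0667 and an adjusted p of 1). The 95% intervals of the 33 genes reached from -0.30 to 0.51. These intervals include differences as large as those with G4 oligonucleotides for some of the genes. At the low end MIS12 (-0.11) had 0.34, 0.36, 0.01 and 0.10 in PC-3, 0.04, -0.06, -0.01 and 0.04 in HBC4 and -0.33, -0.56, -0.53 and -0.51 in MKN74. CENPU (-0.02) had -1.13, -1.35, -1.002 and -1.14 in PC-3, 0.40, 0.45, 0.73 and 0.73 in HBC4 and -0.22, -0.09, 0.12 and 0.11 in MKN74, and DSN1 (-0.01) had -0.42, -0.50, -0.65 and -0.68 in PC-3, -0.03, -0.17, 0.09 and 0.03 in HBC4 and 0.54, 0.73, 0.69 and 0.74 in MKN74. None of these last 3 separated (uuaccc)4 from reagent alone in a common direction over the lines.

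By line, the signs of this step differed. In HBC4 28 of 33 genes were higher with (uuaccc)4 than with reagent alone (median 0.19) and in MKN74 29 (median 0.18), where 50.1% and 47% of all genes were. In PC-3 26 were lower (median -0.10), against 53.5% of all genes. The 30 other kinetochore genes had 23 positive in the mean of the 3 lines and the 18 S phase genes 16, against 47.1% of all genes. The pattern of lower in PC-3 and higher in both others was that of 21 genes (63.6%), and of 14.3% of all genes. SPC25, for instance, had -0.15, 0.55 and 0.24 in PC-3, HBC4 and MKN74. Each such value rests on 1 array against 1 array. Genes that move together are no separate observations of a step, so these counts of genes do not measure how reliable the pattern is. Put in order, reagent alone was lowest, (uuaccc)4 next and both G4 arrays highest for 23 genes in HBC4 and 20 in MKN74, where 14.9% and 10.9% of all genes had that order. In PC-3 it held for CENPE and BUB1B (12.5% of all genes). In a model with a separate step for each line, added after the pattern was seen, 0 of 33 genes differed between lines (limma F test, smallest adjusted p = 1, and 0 with an unadjusted p under 0.05, against 4.2% of all genes). For no single gene was the difference between lines shown to be larger than the spread between arrays.

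**Figure D4:**
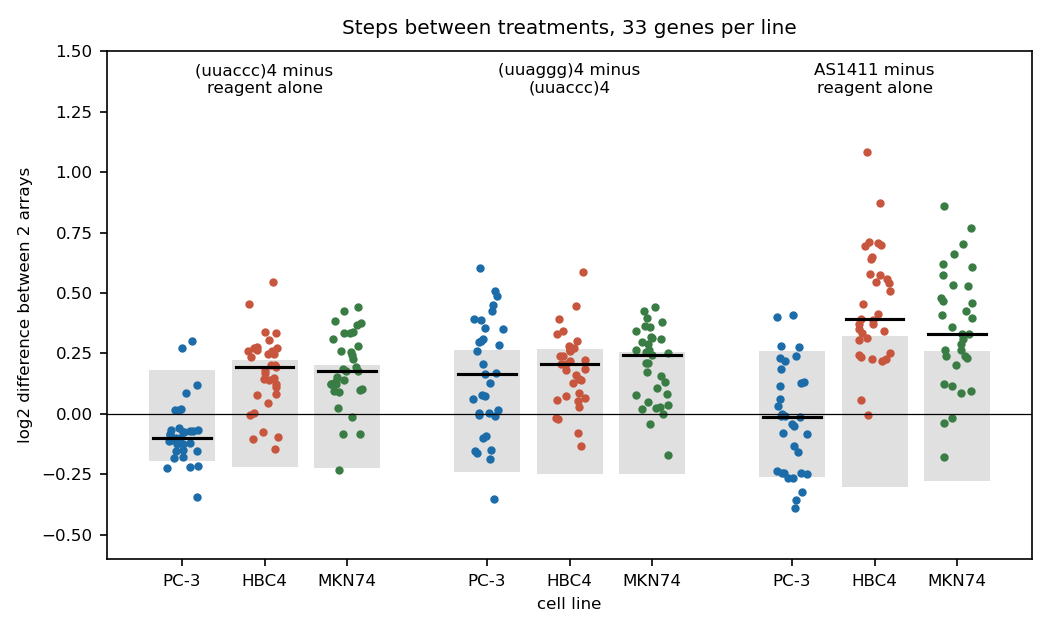
Points are the 33 genes, each the log2 difference between 2 arrays of a line for 3 steps between treatments, black bars their medians, and grey boxes the range from the 10th to the 90th percentile of all genes. For (uuaccc)4 minus reagent alone the median is -0.10 in PC-3 and 0.19 and 0.18 in the other lines.

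With the non-G4 RNA as control, (uuaggg)4 was higher than (uuaccc)4 for 29 of 33 genes, with a median of 0.17 against 0.02 for all genes. limma called 0 of them, and 0% of all genes as higher and 0.202% as lower, and robust eBayes called 0. At an unadjusted p under 0.05 there were 12. That count was not made over all genes, so it cannot be read as an excess. CENPM (0.41 ± 0.23, adjusted p = 0.325), CENPE (0.38 ± 0.07, adjusted p = 0.205) and BIRC5 (0.37 ± 0.08, adjusted p = 0.313) had the largest values, and MIS12 (-0.09), CENPL (-0.06) and CENPQ (-0.04) the lowest. Here PC-3 went with the others: 24, 29 and 30 of 33 genes were positive in PC-3, HBC4 and MKN74, with medians of 0.17, 0.21 and 0.24. Of all genes 53.9%, 54% and 52.8% were positive, again from 1 array against 1 array.

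AS1411 was compared with the reagent alone, as no matched DNA control is among the treatments. SPC25 (0.78 ± 0.34, 1.72-fold, adjusted p = 0.0292), CENPE (0.54 ± 0.23, 1.45-fold, adjusted p = 0.0371), MAD2L1 (0.50 ± 0.24, 1.41-fold, adjusted p = 0.0424) and BUB1B (0.48 ± 0.21, 1.40-fold, adjusted p = 0.048) rose. These 4 of 33 compare with 0.106% of all genes, and 0 fell, where 0.415% of all genes did. The differences were positive for 29 of 33 genes (median 0.22), and CENPM (0.49), NUF2 (0.50) and CENPW (0.46) had adjusted p of 0.142, 0.142 and 0.077. By line 32 and 30 genes were positive in HBC4 (median 0.39) and MKN74 (median 0.33), and 13 in PC-3 (median -0.01). Of all genes 54.6%, 49.5% and 51.4% were positive in HBC4, MKN74 and PC-3, from 1 array against 1 array. The lowest values were those of MIS12 (-0.14, adjusted p = 0.515), CENPQ (-0.01) and NSL1 (-0.00). With only the 6 arrays of the 2 treatments 0 of the 4 passed, without the PC-3 array of reagent alone it was 5, without any other one array 0 to 2, and with the probe set that varied most between lines it was 1. The reagent arrays used here are also those of the step to (uuaccc)4, and both comparisons of a single G4 oligonucleotide reuse arrays of the pooled G4 comparison, so they are no separate evidence. Side by side, (uuaggg)4 against (uuaccc)4 and AS1411 against reagent alone gave 0.26 and 0.78 for SPC25, 0.38 and 0.54 for CENPE, 0.26 and 0.50 for MAD2L1 and 0.31 and 0.48 for BUB1B. The baselines of these pairs differ, and the 4 genes were those that passed with AS1411, so the pairs do not rank the oligonucleotides. Set directly against AS1411, (uuaggg)4 differed by -0.31 for SPC25, 0.03 for CENPE, -0.14 for MAD2L1 and -0.03 for BUB1B.

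The G4 RNA and the G4 DNA were also set against each other. limma called 0 of 33 genes and 0% of all genes, and 1 gene, SPC25, had an unadjusted p under 0.05. For SPC25 (uuaggg)4 minus AS1411 was -0.31 ± 0.07 (95% interval -0.60 to -0.03, adjusted p = 1), with AS1411 the higher array in all 3 lines. MAD2L1 (-0.14) and NUF2 (-0.10) followed. INCENP (0.22 ± 0.27, adjusted p = 1), SPC24 (0.14) and CENPI (0.14) lay at the other end. The intervals of single genes extended 0.15 to 0.31 to each side of the estimate. The median over the genes was 0.02, with 26, 4 and 18 of 33 positive in PC-3, HBC4 and MKN74. Of all genes 49.7%, 50% and 51.3% were positive there, and each line's value rests on 1 array against 1 array.

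Within single lines, where 2 G4 arrays stand against 2 control arrays, 4 genes rose in HBC4 (1.53% of all genes did), 1 in MKN74 (0.501%) and 0 in PC-3 (0.607%), and 0 fell in any line (1.83%, 1.27% and 1.26%). In HBC4 they were CENPM (0.73, SE 0.12, adjusted p = 0.00849), BIRC5 (0.58, SE 0.12, adjusted p = 0.0287), SKA3 (0.52, SE 0.11, adjusted p = 0.0348) and CENPE (0.52, SE 0.12, adjusted p = 0.0389). CENPE was also the one in MKN74 (0.57, SE 0.12, adjusted p = 0.036). Unadjusted p-values under 0.05 numbered 19, 19 and 9 genes in HBC4, MKN74 and PC-3, a count that was not made over all genes. All 33 genes were positive in HBC4 (median 0.30), 32 in MKN74 (median 0.31) and 20 in PC-3 (median 0.10). Of all genes 55.7%, 52.4% and 54.3% were positive in HBC4, MKN74 and PC-3, so the count in PC-3 was near that share. The test of whether the effect differs between lines called 0 of 33 genes (1.29% of all genes). Its unadjusted p was under 0.05 for 5, again without a count over all genes. They were led by SKA1 (-0.12, 0.35 and 0.31 in PC-3, HBC4 and MKN74, adjusted p = 0.202) and ZWILCH (-0.13, 0.38 and 0.05, adjusted p = 0.244). A smaller difference in PC-3 was thus not shown by that test for any of the genes. The HBC4 count of 4 was 0 to 2 without any one HBC4 array, or the PC-3 array of either G4 oligonucleotide, and the MKN74 count was 0 without the MKN74 arrays of reagent alone, (uuaggg)4 or AS1411 or the PC-3 arrays of reagent alone or (uuaccc)4.

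The larger contrast was between the lines themselves. Over the 4 arrays of each line, 31 of 33 genes differed between lines (limma F test, 70.6% of all genes), all but NSL1 (adjusted p = 0.12) and INCENP (adjusted p = 0.062). PC-3 was the lowest line for 29 genes. Against MKN74 29 were lower and 2 higher in PC-3, where 33.9% of all genes were lower and 27% higher, and against HBC4 28 were lower and 2 higher (29% and 27.3%). The median difference was -1.24 against MKN74 and -1.19 against HBC4, beside -0.07 and -0.05 over all genes. HBC4 and MKN74 differed in both directions, with 11 genes higher and 13 lower in HBC4 (23.6% and 28.2%). Of the 18 S phase genes 17 were lower and 0 higher in PC-3 than in HBC4 (median -1.44). Against MKN74 17 were lower and 1 higher in PC-3 (median -0.87). Of the 30 other kinetochore genes 16 were lower and 9 higher in PC-3 than in HBC4 (median -0.29), and 21 lower and 3 higher than in MKN74 (median -0.55).

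CENPK and CENPH, of the CENP-H, -I, -K, -M group, set PC-3 furthest apart from HBC4, at 9.65-fold and 7.68-fold lower. CENPK averaged -2.64 ± 0.16 in PC-3 (SD, n = 4 arrays), 0.63 ± 0.23 in HBC4 and -0.02 ± 0.21 in MKN74. Against MKN74 the largest were SPC25 (-2.16 ± 0.24 in PC-3, -0.06 ± 0.46 in HBC4, 1.01 ± 0.38 in MKN74) and TTK (-1.78 ± 0.26, -0.08 ± 0.18 and 1.27 ± 0.33). For both, the 3 lines took 3 distinct levels, each pair past the threshold. CENPL went the other way: it was the highest in PC-3 (1.21 ± 0.15, against -0.07 ± 0.15 and -0.15 ± 0.16), on both of its probe sets. MIS12 was also highest in PC-3 (0.20 ± 0.18, 0.00 ± 0.05 and -0.49 ± 0.10), and HBC4 and MKN74 were past the threshold below it. The 2 probe sets of SPC24 disagreed, with PC-3 minus HBC4 at -2.18 on one and 0.26 on the other. The probe sets of KNL1 ran from -2.84 to -0.00 for PC-3 minus MKN74. Because the centring removes each probe set's level, a value near background in a line cannot be recognised. Each tissue is represented by 1 line, so tissue and line cannot be told apart.

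**Figure D5:**
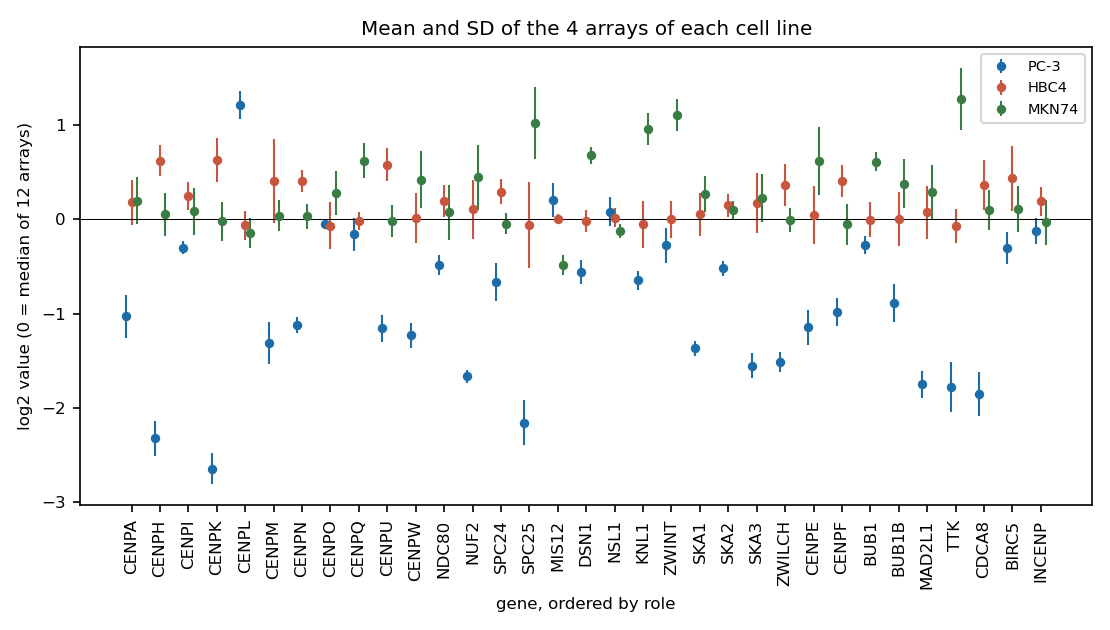
For each of the 33 genes (horizontal axis, ordered by role) the points are the mean log2 value of the 4 arrays of a line and the bars their SD, relative to the median of the 12 arrays. PC-3 lies below the other lines for 29 genes, with CENPL at 1.21 as the clear exception.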

How the data were processed

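Total RNA of 12 samples (3 cell lines, 4 treatments) was measured on Affymetrix human arrays, and per the labels' protocols biotinylated cRNA was made from 100 ng. The authors deposited log2 values; their processing notes list RMA without a version. Every one of the 54675 probe sets has its 12-array median at 0 (largest deviation 5e-07), and no source used here describes that centring. Differences between arrays survive it, levels, detection and depth do not. Base 2 was inferred from RMA and from the highest value, 11.2.

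Array controls (62 probe sets), probe sets naming several genes (1801) and unnamed ones (11721) were left out, and the probe sets of a gene were averaged. Symbols come from the platform annotation of 2016 (41037 of 41091 matched RefSeq). limma 3.58.1 (R 4.3.3) was run on all 12 arrays with treatment and cell line as terms (6 residual degrees of freedom). Effects within lines and their interaction came from a model of line and class effect per line. Adjusted p-values are Benjamini-Hochberg over 19775 genes. Arrays are paired by cell line, as each line received the 4 treatments. Over the 19775 genes 2 arrays of one line correlated at no less than 0.87. For 2 arrays of different lines it was no more than -0.17, a value that centring lowers. The scripts were tested on simulated data. Alternatives were 1 probe set a gene (that whose line means varied most), no _s_at or _x_at probe sets, quantile normalization, array centring, robust eBayes, fewer arrays and no line term.

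The genes and lists were chosen with earlier results of these data known. Full values are given for genes past the threshold and for the 3 largest and smallest differences of a comparison, and each array's values for the 10 smallest p of the G4 comparison and the extremes of the (uuaccc)4 step. The other genes were named after their values were seen.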

Additional observations from a re-analysis of the deposited data

Results flagged for a closer look

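Of 165 groups of 4 or 6 arrays tested, 5 held an array far from the others, a smaller share than the about 1 in 20 that chance gives. They are listed as a description only. Among the 6 arrays with G4 oligonucleotides, each minus the mean of its line, the AS1411 array of HBC4 stood at 0.54 for CENPM, with the other 5 at 0.11 to 0.26. The AS1411 array of PC-3 was the low one for CENPU (0.016, the others 0.13 to 0.16), for SPC24 (-0.21, the others 0.04 to 0.17) and for NSL1 (-0.21, the others -0.02 to 0.07). Among the 4 HBC4 arrays, reagent alone was low for NSL1 (-0.14, the others 0.05 to 0.08).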

How the results depend on the processing

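Of the 10 genes higher with G4 oligonucleotides, 7 were among the 10 called with 1 probe set a gene, 6 among 7 without _s_at and _x_at probe sets (27 genes measured), 8 among 8 after quantile normalization, 9 among 9 after array centring and 10 among 10 with robust eBayes. Without the cell line as a replicate block the count was 0, as was that of AS1411 against reagent alone; against (uuaccc)4 only it was 0 and against reagent alone only 5. Leaving out arrays or lines gave 0 to 13 for G4 against controls and 0 to 5 for AS1411, where 1 probe set a gene gave 1 and the 6 arrays of both treatments 0. Within HBC4 the count of 4 became 2 with 1 probe set a gene, 2 without _s_at and _x_at and 10 after quantile normalization, and 0 to 5 without single arrays; within MKN74 the count of 1 became 2 without _s_at and _x_at, 2 after quantile normalization and 0 to 1 without single arrays. Higher in PC-3 than HBC4 were 1 with 1 probe set a gene, 1 without _s_at and _x_at and 1 to 2 without single arrays or a line; than MKN74 1, and HBC4 above MKN74 7, both without _s_at and _x_at. The F test of lines cannot be redone without a line.

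The following signs turned, and the cause was not tested. In G4 against controls CENPQ was 0.037 and NSL1 0.030 against reagent alone only, NSL1 0.037 without _s_at and _x_at, and leaving out arrays or lines gave -0.097 to 0.098 for CENPQ and -0.078 to 0.086 for NSL1. In (uuaccc)4 against reagent alone CENPU was 0.0090 after quantile normalization, with -0.088 to 0.085 (CENPU) and -0.11 to 0.086 (DSN1) in omissions. In (uuaggg)4 against (uuaccc)4 CENPL was 0.11 both with 1 probe set a gene and without _s_at and _x_at, and omissions gave -0.16 to 0.0046 for CENPL, -0.16 to 0.042 for MIS12 and -0.14 to 0.021 for CENPQ. In AS1411 against reagent alone NSL1 was 0.0072 with 1 probe set a gene, 0.074 without _s_at and _x_at and 8.92e-05 after quantile normalization, and omissions gave -0.12 to 0.17 for NSL1 and -0.14 to 0.18 for CENPQ. In (uuaggg)4 against AS1411 they gave -0.039 to 0.31 for CENPI, -0.20 to 0.0034 for NUF2 and -0.063 to 0.074 for the median of the 33 genes. One array for each line and treatment, and values without levels, limit what these data can show.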
